A study of Mus musculus with 18 samples.

Results

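The 9 genes described here code for the Toll-like receptors (TLRs) of the cell surface and the proteins that work beside them: the receptors Tlr1, Tlr2, Tlr4, Tlr5 and Tlr6, the co-receptors Cd14 and Ly96 (MD-2), and the related pair Cd180 (RP105) and Ly86 (MD-1). They were chosen by name from the 18668 gene rows of the expression table by a rule that uses no level or test, although earlier results of these data were known when the set was chosen. RNA was sequenced from mouse bone marrow-derived macrophages (BMDM), that is, macrophages grown from marrow with M-CSF over 7 days. The mice were of C57BL6 background and were either Apoe-/- or Apoe-/-/Treml4-/- (DKO), so every group lacked Apoe, and the DKO line came from crossing the 2 knockouts. BMDM of each genotype received PBS vehicle (untreated) or oxLDL (low-density lipoprotein altered by oxidation, which loads macrophages with lipid until they become foam cells) at 10 µg/ml (oxLDL 10) or 60 µg/ml (oxLDL 60). The design text gives 16 h of treatment and the study's main text a longer time, and a label that mentions LPS was not resolved. Each of the 6 groups had 3 replicates. The ages of the mice were not given in the sources used here.

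Surface TLRs recognize molecules of the outer layer of microbes. TLR2 pairs with TLR1 or with TLR6 to bind bacterial lipopeptides, TLR4 binds lipopolysaccharide through MD-2 after CD14 has handed the lipid over, and TLR5 binds flagellin. RP105 with MD-1 resembles the TLR4 and MD-2 complex but lacks the signalling domain. In macrophages TLR4, TLR6 and the scavenger receptor CD36 have also been described as a sensor of oxidized lipoprotein. All the values below are levels of RNA, and none is a level of protein at the surface.

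Depth recovered from the table was 39.7 M to 54.2 M reads per library. Levels are in RPKM, a count of reads divided by transcript length and library depth, which allows levels of different genes to be set side by side. Treml4, the gene removed in DKO, was at 1.86 to 8.39 RPKM in Apoe-/- BMDM and did not exceed 0.0116 RPKM in any DKO library. The macrophage markers Adgre1, Csf1r, Itgam, Cd68, Lyz2, Fcgr1, Mertk and Mrc1 were all measured in every group, while the summed markers of dendritic cells stayed at or below 0.421 RPKM, those of B cells at or below 2.42, and those of T and NK cells, mast cells and erythroid cells at or below 0.184. Markers of neutrophils and their precursors summed to between 30.1 and 82.3 RPKM, with Ly6g at no more than 0.026 RPKM, and stromal markers to between 0.548 and 14.2 RPKM. Xist, which is transcribed from the inactive X chromosome of female cells, was at 7.25 to 14.5 RPKM in replicate 2 of every Apoe-/- group and in replicate 3 of every DKO group, whereas the other 12 libraries did not exceed 0.069 RPKM. Each group thus held 1 Xist-positive library. Since it had the same replicate number throughout a genotype, counts of groups by this library are not independent, and Xist cannot be told apart from that replicate.

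In untreated Apoe-/- BMDM the members spanned more than 3 orders of magnitude. Cd14 was the most abundant at 359 ± 48.1 RPKM (SD, n = 3), followed by Tlr2 at 166 ± 25.6, Ly86 at 71.7 ± 14.9, Cd180 at 41.6 ± 8.26 and Tlr4 at 20.4 ± 2.60. The libraries of these neighbors did not overlap. Tlr1 at 13.0 ± 2.49 RPKM and Ly96 at 10.1 ± 1.53 overlapped, Tlr6 stood below them at 6.66 ± 1.42, and Tlr5 was near the limit of detection at 0.109 ± 0.0377. Untreated DKO BMDM gave the same order, except that Ly96 (9.51 ± 1.05) stood just above Tlr1 (9.23 ± 3.14), again with overlap. With oxLDL 60 the order changed in both genotypes, because Ly86 then lay above Tlr2, and Tlr6 above Tlr1. In that condition Tlr2 overlapped with Cd180 in both genotypes, and Tlr6 overlapped with Tlr1 in Apoe-/- but not in DKO.

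**Figure D1:**
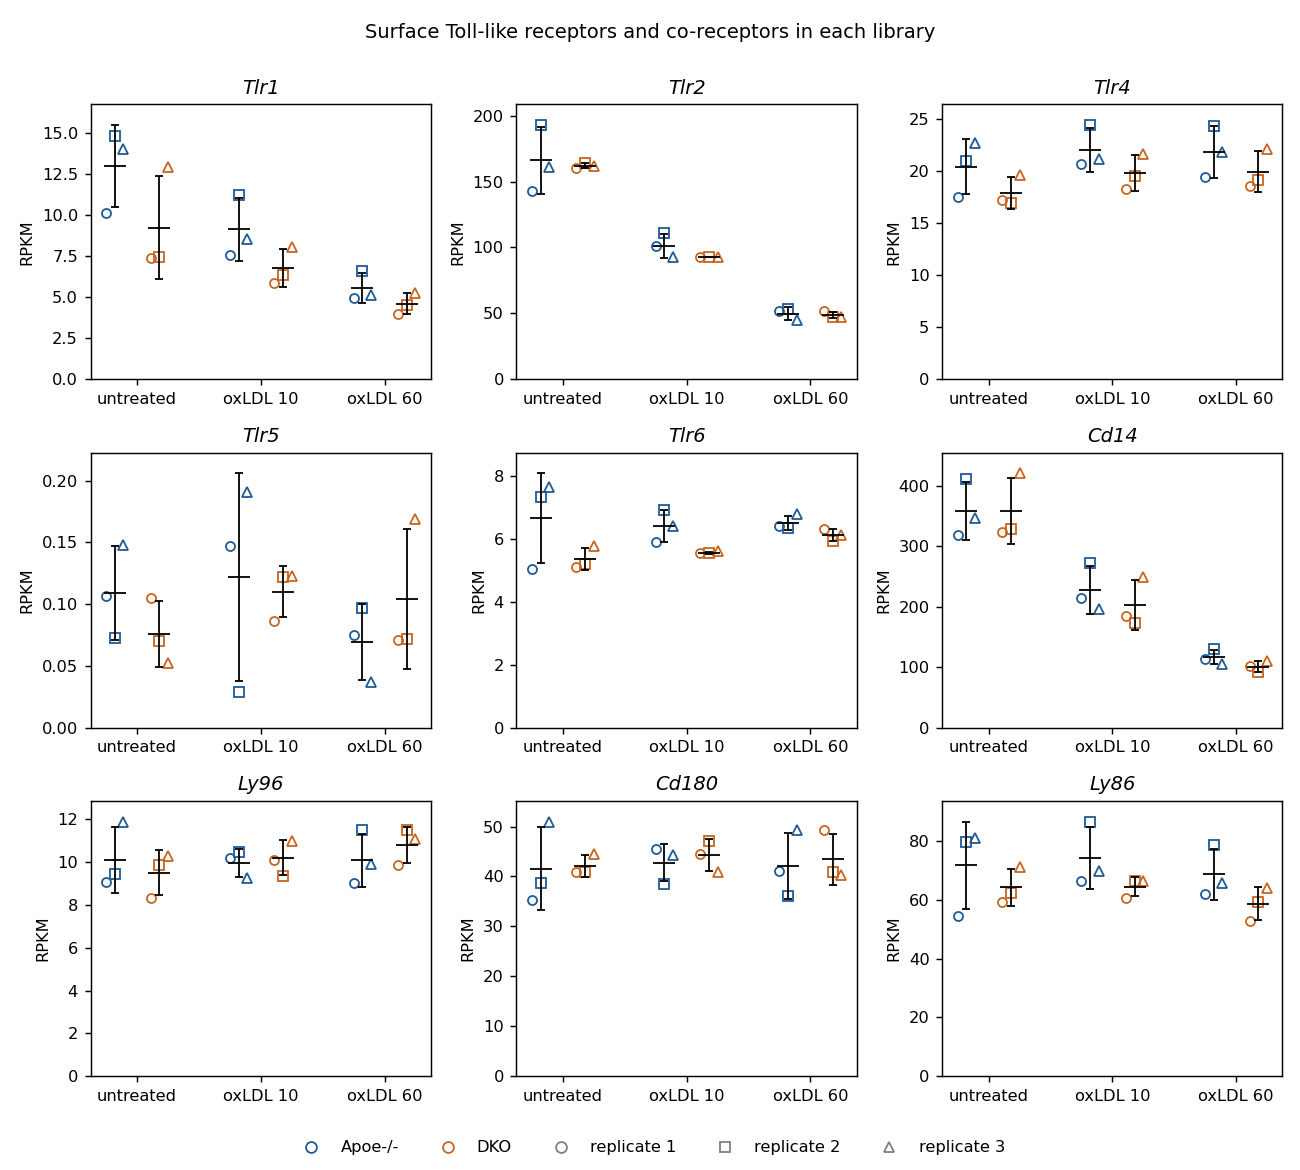
Levels of the 9 genes in RPKM (linear axes from 0) in each of the 18 libraries, with Apoe-/- in blue and DKO in orange. The symbol marks the replicate number, and the black bar and whiskers give the mean ± SD of 3 libraries. Cd14, Tlr2 and Tlr1 step down with the amount of oxLDL, whereas Tlr4, Tlr6, Ly96, Cd180 and Ly86 show no such step and were not called.

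Of the 9 members, 3 fell with oxLDL in both genotypes: Cd14, Tlr2 and Tlr1. At oxLDL 60 their mean levels were 28.3% to 49.8% of those of untreated cells. The other 6 did not pass the test in any comparison with oxLDL. A gene was called when the Benjamini-Hochberg adjusted p of limma over 12838 genes was under 0.05 and the fold change at least 1.4. All 9 members entered the test, although Tlr5 reached the minimum level of 0.1 RPKM in 8 libraries only. At oxLDL 60, 3 of 9 members were called lower in Apoe-/-, where 6.78% of all tested genes were, and 3 of 9 in DKO, where 7.31% were. At oxLDL 10 the counts were 2 of 9 against 2.04% in Apoe-/- and 2 of 9 against 1.69% in DKO. Between oxLDL 60 and oxLDL 10 they were 3 of 9 against 3.54% in Apoe-/- and 2 of 9 against 3.74% in DKO. The comparisons of a genotype share their untreated libraries or their oxLDL 10 and oxLDL 60 libraries, so these counts are not independent. The model behind the counts has no term for the replicate number. With that number as a block, Tlr1 was also called lower at oxLDL 10 in Apoe-/- and from oxLDL 10 to oxLDL 60 in DKO. The median log2 fold change of the 9 members at oxLDL 60 was -0.05 in Apoe-/- and 0.04 in DKO, beside 0.06 and -0.06 over all genes tested.

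Cd14, the lipid-anchored co-receptor that passes lipopolysaccharide to TLR4 and also serves TLR2, had the highest level of the group. In untreated Apoe-/- BMDM it was at 318, 412 and 347 RPKM in replicates 1 to 3, with oxLDL 10 at 215, 272 and 197, and with oxLDL 60 at 114, 130 and 106. The 3 groups did not overlap, and the lowest untreated library stood above every treated one. In DKO the levels were 324, 329 and 421 RPKM untreated, 185, 174 and 250 with oxLDL 10, and 102, 91.6 and 110 with oxLDL 60, again without overlap. At oxLDL 60, 14.9% of all genes tested lay wholly below untreated in Apoe-/- and 28.3% in DKO. At oxLDL 10 the shares were 6.16% and 8.9%. Wholly below oxLDL 10 at oxLDL 60 were 15.5% in Apoe-/- and 25.8% in DKO. The mean was 3.07-fold lower with oxLDL 60 than in untreated cells in Apoe-/- and 3.53-fold lower in DKO.

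On the log2(RPKM + 0.1) scale, the change of Cd14 with oxLDL 60 was -1.61 (SE 0.15, adjusted p = 3.56e-07) in Apoe-/- and -1.81 (SE 0.15, adjusted p = 9.98e-08) in DKO. With oxLDL 10 it was -0.66 (SE 0.15, adjusted p = 0.0131) in Apoe-/- and -0.83 (SE 0.15, adjusted p = 0.00386) in DKO. The step from oxLDL 10 to oxLDL 60 was a further -0.95 (SE 0.15, adjusted p = 3.18e-04) in Apoe-/- and -0.99 (SE 0.15, adjusted p = 2.43e-04) in DKO. In Apoe-/- the call at oxLDL 10 was lost without untreated replicate 2 (log2 fold change -0.56, adjusted p = 0.0703), without oxLDL 10 replicate 1 (-0.62, adjusted p = 0.0585) or without oxLDL 10 replicate 3 (-0.56, adjusted p = 0.0621). The Xist-positive library, the same replicate number throughout a genotype, was the highest for Cd14 in 6 of 6 groups.

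Tlr2 lies on the minus strand of chromosome 3 (chr3:83836272-83841767 in mm10, also called GRCm38) with 3 exons, and codes for the subunit that both lipopeptide receptors share. Among the 3 falling genes its replicates had the smallest coefficient of variation in 5 of 6 groups, the exception being untreated Apoe-/-, where it was 15.4% against 13.4% for Cd14. Levels in Apoe-/- were 143, 193 and 161 RPKM untreated, 101, 111 and 92.6 with oxLDL 10, and 51.7, 53.4 and 44.7 with oxLDL 60. In DKO they were 160, 164 and 162 RPKM, then 92.5, 93.1 and 93.0, then 51.6, 47.0 and 47.5. Within each genotype the 3 groups did not overlap, beside the shares of all genes given for Cd14, and at each treatment the 2 genotypes did. With oxLDL 60 the mean was 3.32-fold lower than untreated in Apoe-/- and 3.33-fold lower in DKO.

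The log2 fold change of Tlr2 at oxLDL 60 was -1.72 (SE 0.09, adjusted p = 8.88e-10) in Apoe-/- and -1.73 (SE 0.09, adjusted p = 1.19e-09) in DKO. At oxLDL 10 it was -0.70 (SE 0.09, adjusted p = 3.26e-04) in Apoe-/- and -0.80 (SE 0.09, adjusted p = 1.01e-04) in DKO. From oxLDL 10 to oxLDL 60 the change was -1.02 (SE 0.09, adjusted p = 1.71e-06) in Apoe-/- and -0.93 (SE 0.09, adjusted p = 5.33e-06) in DKO. Each replicate of a genotype kept 27.6% to 36.1% of the Tlr2 level of its own untreated library at oxLDL 60.

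Tlr1, the partner of Tlr2 for triacylated lipopeptides, has 4 exons in its longest transcript and lies on the minus strand at chr5:64924679-64933563, next to Tlr6 (chr5:64952031-64960097, minus strand, 2 exons). In Apoe-/- it was at 10.1, 14.8 and 14.0 RPKM untreated, 7.59, 11.2 and 8.54 with oxLDL 10, and 4.92, 6.61 and 5.15 with oxLDL 60. In DKO the levels were 7.41, 7.43 and 12.9 RPKM, then 5.85, 6.36 and 8.06, then 4.00, 4.54 and 5.26. The oxLDL 60 libraries lay below all untreated and all oxLDL 10 libraries of their genotype, beside the shares of all genes given for Cd14. The oxLDL 10 and untreated libraries overlapped. The Xist-positive library was the highest for Tlr1 in 6 of 6 groups, although in untreated Apoe-/- it stood only just above replicate 3.

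The log2 fold change of Tlr1 with oxLDL 60 was -1.20 (SE 0.21, adjusted p = 3.02e-04) in Apoe-/- and -0.95 (SE 0.21, adjusted p = 0.00262) in DKO. At oxLDL 10 its log2 fold change was -0.51 (SE 0.21, adjusted p = 0.165) in Apoe-/- and -0.41 (SE 0.21, adjusted p = 0.441) in DKO. With the replicate number as a block, the value in Apoe-/- passed (SE 0.09, adjusted p = 0.00175), as it did with a term for the Xist-positive libraries (adjusted p = 0.00596). The value in DKO had an adjusted p of 0.00997 with the block but missed the minimum fold of 1.4. From oxLDL 10 to oxLDL 60 Tlr1 fell by 0.70 (SE 0.21, adjusted p = 0.0352) in Apoe-/-, and the change in DKO of -0.54 (SE 0.21, adjusted p = 0.0950) passed with the block (SE 0.09, adjusted p = 4.70e-04) and with the Xist term (adjusted p = 0.00175). The call in Apoe-/- was lost without oxLDL 10 replicate 2 (-0.54, adjusted p = 0.137) or replicate 3 (-0.74, adjusted p = 0.0713) and without oxLDL 60 replicate 1 (-0.62, adjusted p = 0.124) or replicate 3 (-0.65, adjusted p = 0.110).

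**Figure D2:**
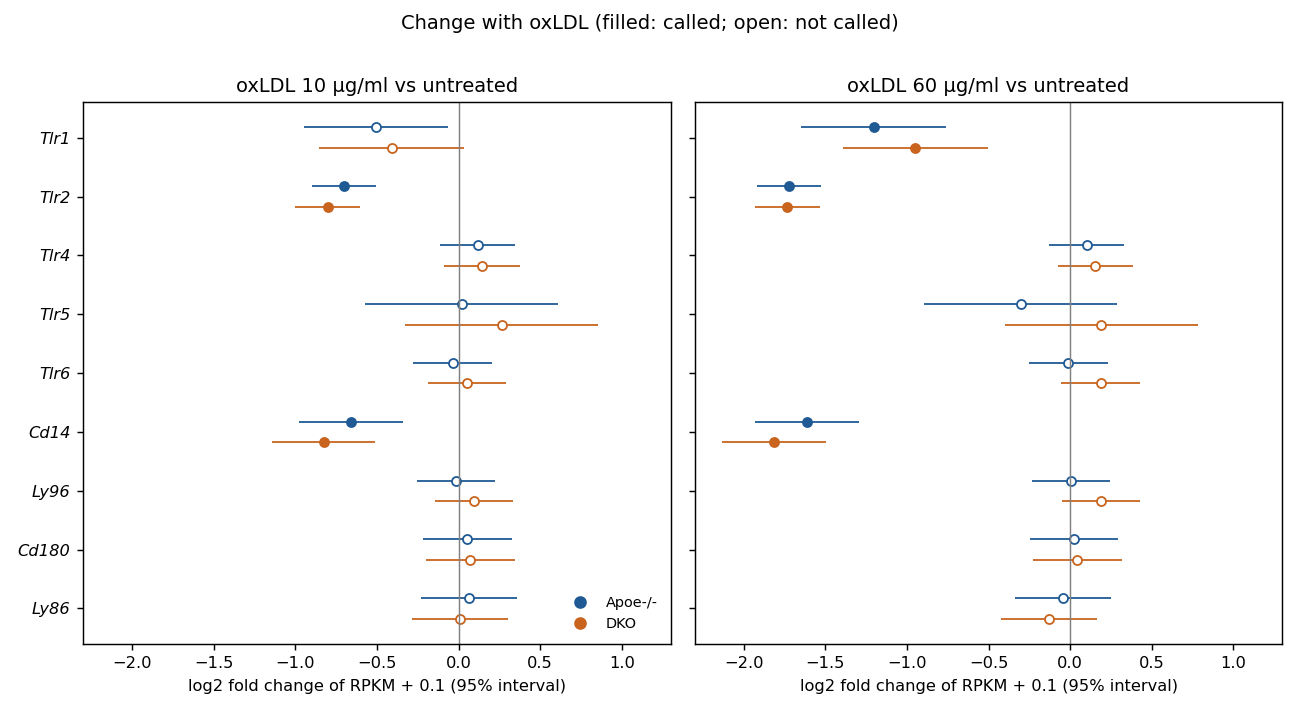
Log2 fold change of RPKM + 0.1 against untreated BMDM for the 9 genes, with oxLDL 10 on the left and oxLDL 60 on the right, Apoe-/- in blue and DKO in orange. Lines are 95% intervals from limma and filled points were called. At oxLDL 60 Tlr2 and Cd14 lie between -1.61 and -1.81 in both genotypes, Tlr1 at -1.20 and -0.95, and the intervals of the other 6 genes include 0.

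The upstream sequences of Tlr2 and Tlr1, which fell, and of Tlr6, the neighbor of Tlr1 that did not, are shown so that they can be read beside the values. They come from RefSeq promoter windows in GRCm38.p6, which hold the 250 bases before each annotated start, and 6 of the 9 members matched (Tlr1, Tlr2, Tlr5, Tlr6, Cd180 and Ly86). Exonic bases of GENCODE M21 were left out, although for Tlr1 only 5 of the 8 counted were. This leaves chr3:83841768-83841858 for Tlr2 (91 bases) and chr5:64933564-64933808 for Tlr1 (245 bases). For Tlr6 it leaves chr5:64959167-64959416 (250 bases, which lie between the exons of the longest Tlr6 model). All 3 are on the minus strand and are written 5′ to 3′ in the direction of transcription, with the matched letters in capitals.
Tlr2: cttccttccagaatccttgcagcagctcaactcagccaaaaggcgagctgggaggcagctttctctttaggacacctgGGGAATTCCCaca
Tlr1: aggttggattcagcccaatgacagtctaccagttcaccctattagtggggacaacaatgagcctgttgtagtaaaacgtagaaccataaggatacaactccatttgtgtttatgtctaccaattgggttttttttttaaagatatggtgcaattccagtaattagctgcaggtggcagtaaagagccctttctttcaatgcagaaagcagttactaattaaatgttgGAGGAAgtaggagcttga
Tlr6: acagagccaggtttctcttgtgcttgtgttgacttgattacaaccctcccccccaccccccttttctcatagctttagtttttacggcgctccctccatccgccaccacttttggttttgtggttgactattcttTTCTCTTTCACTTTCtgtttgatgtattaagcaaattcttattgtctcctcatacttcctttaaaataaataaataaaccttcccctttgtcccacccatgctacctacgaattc

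The capitals in Tlr2 are matches of GGGNNTTCC, a form of the κB site, on both strands at positions -172 and -171 from the RefSeq start, so 1 palindromic stretch gave both matches. Those in Tlr1 are GAGGAA, the core bound by PU.1, at -23, and those in Tlr6 are 2 overlapping matches of GAAANNGAA, the core of an interferon-stimulated response element, on the reverse strand at -115 and -109. TGANTCA, an AP-1 site, was the fourth motif searched on both strands. Of all 32851 RefSeq promoter windows of this length, 4.98% held GGGNNTTCC, 23.3% GAGGAA, 7.13% GAAANNGAA and 6.75% TGANTCA. The windows of Tlr5, Cd180 and Ly86 and the second windows of Tlr1 and Tlr6 held none of these letters. Such a match is a description of the sequence and no sign that the factor was bound.

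Tlr6, the partner of Tlr2 for diacylated lipopeptides, was at 5.03, 7.31 and 7.65 RPKM in untreated Apoe-/- BMDM, at 5.88, 6.91 and 6.41 with oxLDL 10 and at 6.39, 6.33 and 6.77 with oxLDL 60. The groups overlapped. In DKO it was at 5.11, 5.21 and 5.77 RPKM untreated, at 5.54, 5.54 and 5.60 with oxLDL 10 and at 6.31, 5.92 and 6.12 with oxLDL 60, so that every oxLDL 60 library lay above the untreated ones. This held for 14.3% of all genes tested, and the log2 fold change of 0.19 (SE 0.11, adjusted p = 0.258) did not pass. In Apoe-/- it was -0.01 (SE 0.11, adjusted p = 0.951). Tlr1 and Tlr6 are similar in sequence, and 15.3% of the 50-base windows of the Tlr1 transcript occur in Tlr6 as well, so reads from these stretches could be assigned to either gene. For each other member that share was 0.

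Tlr4, the receptor of lipopolysaccharide, has 3 exons in its longest transcript and lies on the plus strand at chr4:66827584-66930284. It ranged from 16.9 RPKM (untreated DKO) to 24.4 RPKM (Apoe-/- with oxLDL 10) over all 18 libraries. In Apoe-/- it was at 17.5, 20.9 and 22.7 RPKM untreated and at 19.4, 24.3 and 21.8 with oxLDL 60. In DKO it was at 17.2, 16.9 and 19.6 RPKM untreated and at 18.5, 19.1 and 22.1 with oxLDL 60. The log2 fold change of Tlr4 at oxLDL 60 was 0.10 (SE 0.11, 95% interval -0.13 to 0.33, adjusted p = 0.534) in Apoe-/- and 0.15 (SE 0.11, 95% interval -0.08 to 0.38, adjusted p = 0.342) in DKO. A fall as large as that of Cd14 or Tlr2 thus lay outside these intervals.

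Ly96, whose product MD-2 holds the lipid in the TLR4 complex, lies at chr1:16688051-16709611 on the plus strand. Levels were between 8.33 and 11.9 RPKM in all libraries, and all groups overlapped with their neighbors in rank. At oxLDL 60 its log2 fold change was 0.00 (SE 0.11, adjusted p = 0.989) in Apoe-/- and 0.19 (SE 0.11, adjusted p = 0.245) in DKO. In RPKM the mean level of Ly96 was below that of Tlr4 in each group.

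Cd180 and Ly86, both on the plus strand of chromosome 13 (chr13:102693558-102739629 and chr13:37345208-37419036), code for RP105 and its partner MD-1. Cd180 was at 35.2, 38.7 and 51.0 RPKM in untreated Apoe-/- BMDM and at 41.0, 36.1 and 49.3 with oxLDL 60. In DKO it was at 40.8, 40.8 and 44.5 RPKM untreated and at 49.4, 40.8 and 40.2 with oxLDL 60. Its log2 fold change at oxLDL 60 was 0.02 (SE 0.13, adjusted p = 0.920) in Apoe-/- and 0.04 (SE 0.13, adjusted p = 0.851) in DKO. For Cd180 the Xist-positive library was the lowest of its group in 4 of 6 groups and the highest in 1.

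Ly86 was at 54.5, 79.6 and 81.1 RPKM in untreated Apoe-/- BMDM and at 62.1, 78.5 and 65.6 with oxLDL 60. In DKO it was at 59.2, 62.2 and 71.1 RPKM untreated and at 52.7, 59.2 and 64.0 with oxLDL 60. The groups overlapped in both genotypes. Its log2 fold change at oxLDL 60 was -0.05 (SE 0.14, adjusted p = 0.844) in Apoe-/- and -0.13 (SE 0.14, adjusted p = 0.551) in DKO.

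Tlr5, the flagellin receptor on the plus strand at chr1:182954788-182976044, was barely measured. Its levels of 0.0285 to 0.191 RPKM correspond to about 4 to 27 reads per library, read from the steps of its own values. These are the smallest numbers in a search over lengths that came near whole reads (within 0.076). The length of its annotated exons gave 5.99 to 40.4 reads instead. The log2 fold change at oxLDL 60 was -0.30 (SE 0.28, 95% interval -0.89 to 0.29, adjusted p = 0.453) in Apoe-/- and 0.19 (SE 0.28, 95% interval -0.40 to 0.78, adjusted p = 0.679) in DKO, and neither passed. At oxLDL 10, members other than Cd14, Tlr2 and Tlr1 had log2 fold changes between -0.04 and 0.12 in Apoe-/- and between 0.01 and 0.26 in DKO.

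The levels of 2 partners were also set against each other within each library. The ratio of Cd14 to Tlr4 was 17.7 ± 2.24 (SD, n = 3) in untreated Apoe-/- BMDM, 10.3 ± 0.897 with oxLDL 10 and 5.38 ± 0.505 with oxLDL 60. In DKO it was 19.9 ± 1.31, 10.2 ± 1.34 and 5.09 ± 0.397. The 3 treatments did not overlap in either genotype. Tlr4 to Ly96, the 2 parts of the signalling complex, stayed between 1.66 and 2.33 in every library, and Ly86 to Cd180 between 1.07 and 2.24.

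Within the lipopeptide receptors, the ratio of Tlr2 to Tlr6 went from 25.3 ± 3.85 in untreated Apoe-/- BMDM to 7.71 ± 0.972 with oxLDL 60, and from 30.3 ± 1.86 to 7.96 ± 0.210 in DKO. That of Tlr2 to Tlr1 moved less, from 12.9 ± 1.35 to 9.09 ± 1.27 in Apoe-/- and from 18.7 ± 5.29 to 10.8 ± 1.97 in DKO, where the untreated and oxLDL 60 libraries overlapped. Tlr1 stood 1.96 ± 0.106 times as high as Tlr6 in untreated Apoe-/- BMDM, and the ratio was 1.42 ± 0.183 with oxLDL 10 and 0.858 ± 0.161 with oxLDL 60. In DKO the ratio of Tlr1 to Tlr6 was 1.70 ± 0.456, then 1.22 ± 0.201, then 0.753 ± 0.114. The ratios are given as descriptions and were not tested.

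**Figure D3:**
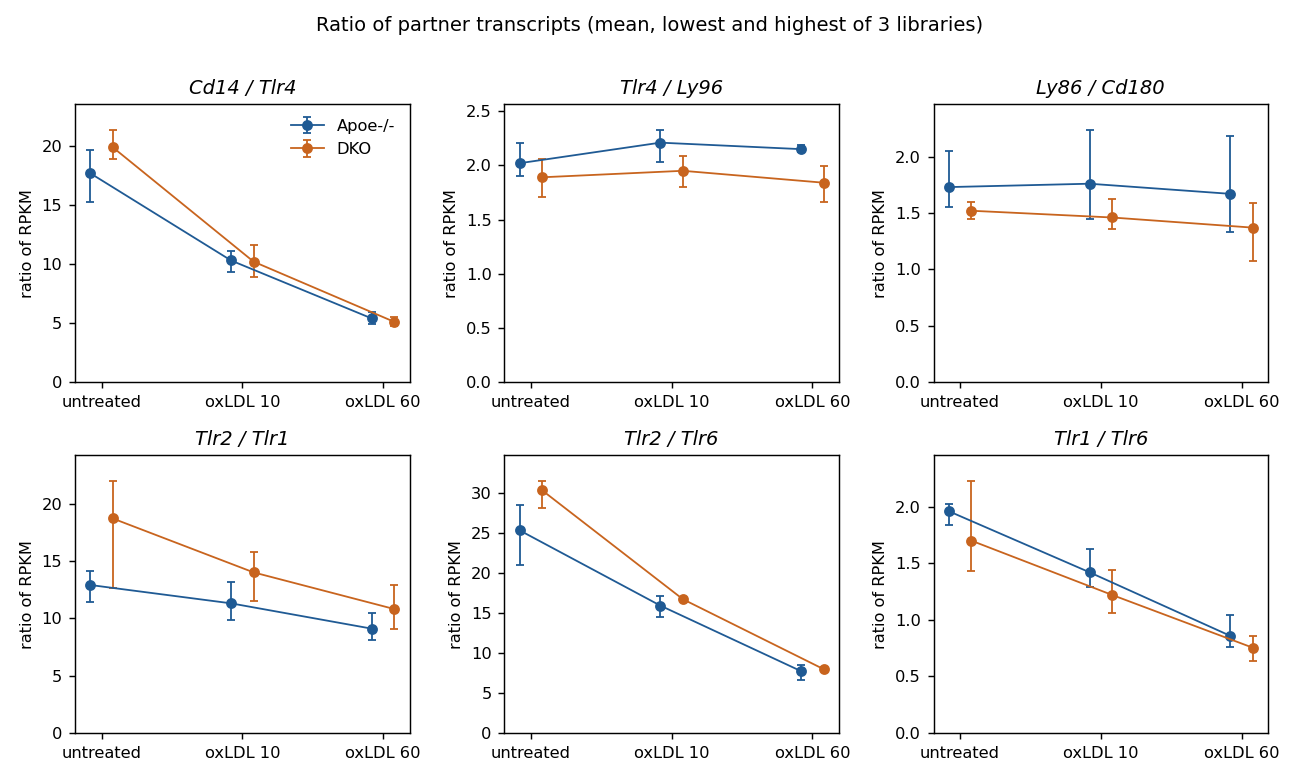
Ratio of the RPKM levels of 2 partner genes within a library (linear axes from 0) by treatment, Apoe-/- in blue and DKO in orange. Points are means of 3 libraries and whiskers run from the lowest to the highest. Cd14 to Tlr4 falls from 17.7 to 5.38 in Apoe-/- and Tlr1 to Tlr6 from 1.96 to 0.858, while Tlr4 to Ly96 stays between 1.66 and 2.33 and Ly86 to Cd180 between 1.07 and 2.24.

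The levels of the macrophage markers also differed with oxLDL. Summed over the 8 genes they were at 8660 to 11400 RPKM in untreated Apoe-/- libraries and at 6480 to 8440 with oxLDL 60, and in DKO at 8090 to 10600 and 5500 to 7100. Most of that sum was Lyz2 (lysozyme), with a mean of 8550 RPKM untreated and 5620 with oxLDL 60 in Apoe-/- and of 7440 and 4550 in DKO. In Apoe-/- the mean of Adgre1 (F4/80) went from 517 to 364 RPKM and that of Csf1r from 567 to 445. Itgam went from 116 to 97.1 and Fcgr1 from 27.1 to 15.0. Cd68, a lysosomal protein, went from 484 to 647, Mertk from 3.32 to 5.35 and Mrc1 from 65.4 to 66.1. In DKO Adgre1 went from 524 to 379 RPKM and Csf1r from 555 to 428. Itgam there went from 101 to 85.1 and Fcgr1 from 25.9 to 13.7. Cd68 went from 488 to 595, Mertk from 2.48 to 4.07 and Mrc1 from 38.2 to 45.0. The summed neutrophil markers were at 30.2 to 47.4 RPKM untreated and 30.1 to 42.9 with oxLDL 60 in Apoe-/-, and at 36.5 to 82.3 and 32.7 to 59.0 in DKO. The part of these levels in the fall of Cd14, Tlr2 and Tlr1 was not tested. In bulk RNA, fewer cells of a type and less RNA per cell cannot be told apart.

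The genes that act beyond the surface receptors were read from 3 lists. Of 20 adaptors and signalling proteins, all tested, 1 was higher and 4 were lower at oxLDL 60 in Apoe-/-, and 0 were higher and 3 lower in DKO. Over all genes tested, 7.13% were called higher and 6.78% lower in Apoe-/-, and 4.87% higher and 7.31% lower in DKO. Without the minimum fold the list counts were 4 higher and 6 lower in Apoe-/- and 1 higher and 6 lower in DKO. The shares of all genes above include the minimum fold, so these last counts cannot be set beside them. Irak3, an inhibitory kinase of the pathway, moved most: it was at 16.6 ± 2.77 RPKM untreated and 5.54 ± 0.374 with oxLDL 60 in Apoe-/- (log2 fold change -1.56, SE 0.12, adjusted p = 4.99e-08) and at 15.0 ± 2.35 and 5.33 ± 0.177 in DKO (-1.47, SE 0.12, adjusted p = 1.19e-07). Myd88, the adaptor shared by all the surface TLRs, fell too, with -0.62 (SE 0.09, adjusted p = 4.83e-05) in Apoe-/- and -0.75 (SE 0.09, adjusted p = 7.34e-06) in DKO. Peli1, a ubiquitin ligase, fell with -0.63 (SE 0.10, adjusted p = 1.79e-04) in Apoe-/- and -0.57 (SE 0.10, adjusted p = 5.50e-04) in DKO. Tnfaip3, a ubiquitin-editing inhibitor of NF-κB, fell by 0.51 in Apoe-/- (SE 0.14, adjusted p = 0.0122), and its value of -0.32 in DKO (adjusted p = 0.116) did not pass. Tollip, an inhibitory adaptor, rose by 0.52 in Apoe-/- (SE 0.07, adjusted p = 2.35e-05), and in DKO its value of 0.41 (adjusted p = 3.12e-04) was under the minimum fold. In Apoe-/- the call of Tollip was lost when each library was rescaled by its median ratio (0.46) or without untreated replicate 1 (0.44), and that of Tnfaip3 with a pseudocount of 1 (-0.48), without the Xist-positive libraries (-0.39), without untreated replicate 2 (-0.46) or replicate 3 (-0.46) or without oxLDL 60 replicate 2 (-0.45).

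Of the 6 proteins for ligand delivery and receptor folding, 5 were tested. Cd36 was the gene called, higher in both genotypes, beside the shares of all genes given for the adaptors. Cd36 was at 196 ± 20.5 RPKM untreated and 438 ± 33.9 with oxLDL 60 in Apoe-/- (log2 fold change 1.17, SE 0.14, adjusted p = 9.51e-06) and at 207 ± 38.0 and 424 ± 54.8 in DKO (1.04, SE 0.14, adjusted p = 3.65e-05). Cd36 thus rose while Cd14 fell, and with oxLDL 60 it was the more abundant of the 2. With oxLDL 10 its mean was already above that of Cd14 (264 against 228 RPKM in Apoe-/-, 281 against 203 in DKO), with overlapping libraries. Lbp, the serum protein that carries lipopolysaccharide to CD14, was not tested, with at most 0.144 RPKM. Hsp90b1 and Cnpy3, which fold TLRs in the endoplasmic reticulum, were not called.

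The nearest other family is that of the endosomal receptors. Tlr3, Tlr7, Tlr8, Tlr9 and Tlr13 bind nucleic acids, Tlr11 and Tlr12 bind a protein of protozoa, and Unc93b1, the eighth gene of the list, is a chaperone that brings these receptors to the endosome. Of the 8 genes 6 were tested (all but Tlr11 and Tlr12), and 1 was higher and 4 were lower at oxLDL 60 in Apoe-/-, against 0 and 3 in DKO, beside the shares of all genes given for the adaptors. With a pseudocount of 1 the 4 became 2 (Tlr3 and Tlr8). Tlr3 and Tlr8 fell in both genotypes. The log2 fold change of Tlr3 was -1.04 (SE 0.13, adjusted p = 6.79e-06) in Apoe-/- and -1.07 (SE 0.13, adjusted p = 6.09e-06) in DKO, and that of Tlr8 -1.001 (SE 0.19, adjusted p = 7.83e-04) and -0.99 (SE 0.19, adjusted p = 9.60e-04). Tlr7 fell with -0.49 (SE 0.09, adjusted p = 5.88e-04) in Apoe-/- and -0.65 (SE 0.09, adjusted p = 4.36e-05) in DKO. Tlr9 fell by 0.67 in Apoe-/- (SE 0.24, adjusted p = 0.0407), with -0.48 in DKO (adjusted p = 0.152). Tlr13 rose by 0.50 in Apoe-/- (SE 0.07, adjusted p = 2.30e-05), from 78.6 ± 5.88 to 111 ± 2.21 RPKM, and its value of 0.46 in DKO (adjusted p = 7.03e-05) was under the minimum fold. After rescaling, Tlr13 was called in DKO (0.52) and not in Apoe-/- (0.44), where it was also lost without untreated replicate 1 (0.44). In Apoe-/- the call of Tlr9 was lost with a pseudocount of 1 (-0.43), with no filter on low values (adjusted p = 0.0836) and without any 1 of untreated replicates 2 and 3 and oxLDL 60 replicates 1 to 3 (adjusted p = 0.0519 to 0.149), and that of Tlr7 with a pseudocount of 1 (-0.48) and without untreated replicate 3 or oxLDL 60 replicate 1 (-0.41 and -0.42, under the minimum fold). Whether any of these genes changed to a different extent in the 2 genotypes was tested by the interaction, and none of the genes in the 3 lists passed it. The median log2 fold change of the 6 genes tested in the endosomal list was -0.58 in Apoe-/- and -0.57 in DKO, and that of the 20 adaptors -0.03 and -0.11.

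**Figure D4:**
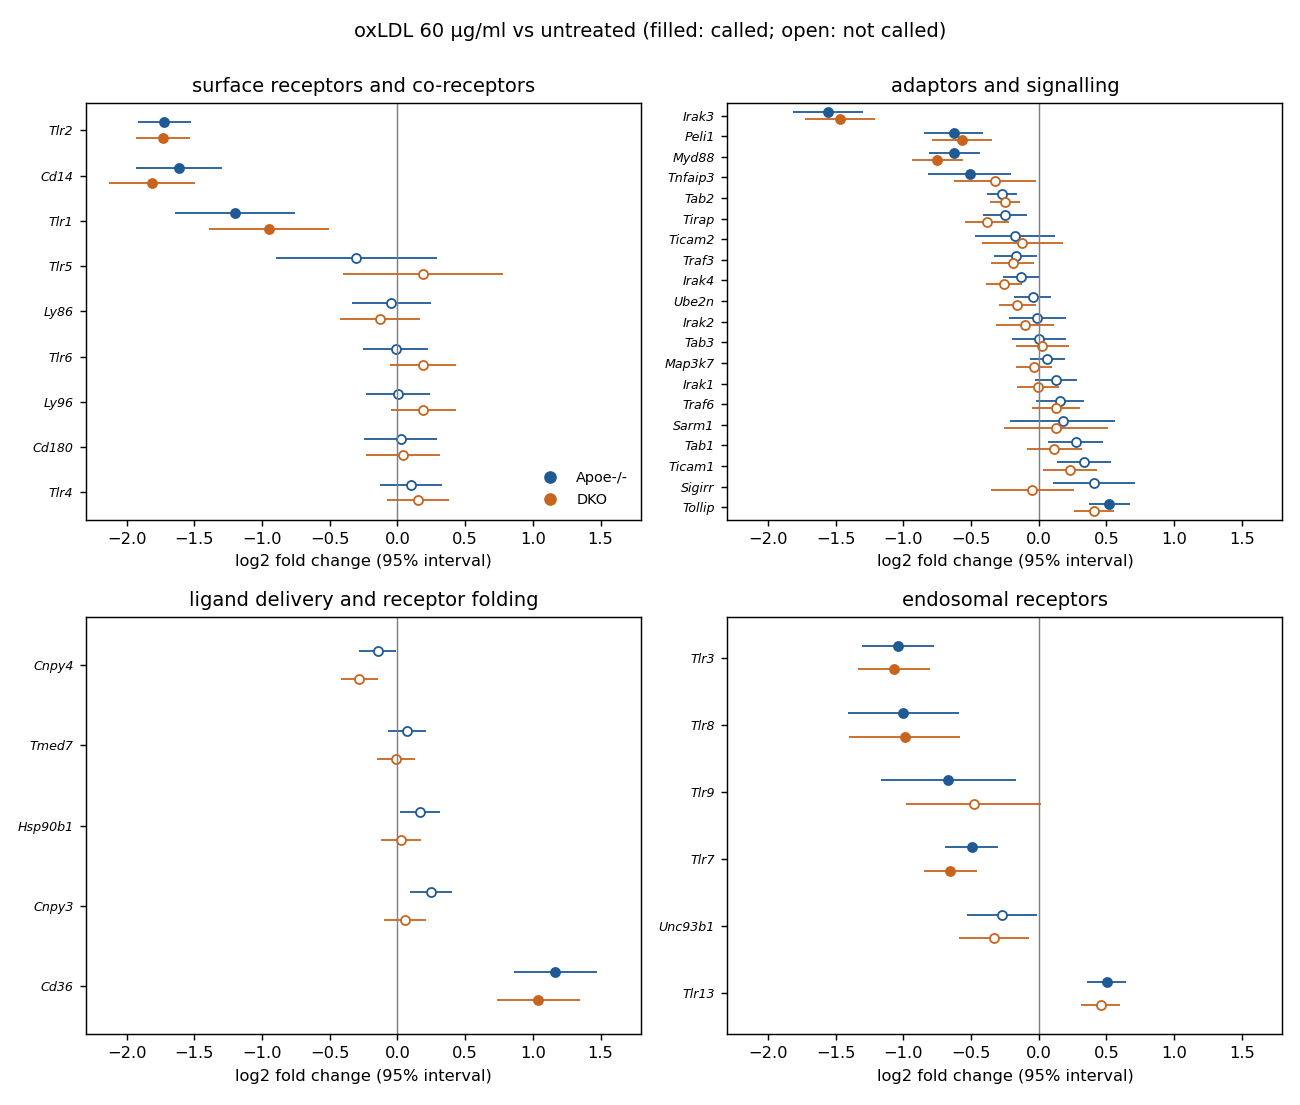
Log2 fold change of RPKM + 0.1 at oxLDL 60 against untreated BMDM for the surface receptors and co-receptors and for 3 further lists of the pathway, Apoe-/- in blue and DKO in orange. Lines are 95% intervals from limma and filled points were called. Irak3 at -1.56 and Cd36 at 1.17 in Apoe-/- are the lowest and the highest values of the 3 further lists in that genotype.

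The second question of the design was whether the loss of Treml4, a TREM-like receptor of myeloid cells, altered these genes. None of the 9 members was called between DKO and Apoe-/-. In untreated cells 0.210% of all genes tested were called in either direction, at oxLDL 10 0.0857% and at oxLDL 60 0.125%. For the interaction of genotype and oxLDL 60 the count was again 0 of 9, with 0.0156% of all genes. The smallest adjusted p of limma among the members was 0.225 in untreated cells and 0.523 at oxLDL 10. It was 0.707 at oxLDL 60 and 0.667 for the interaction.

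Tlr1 had the largest difference between genotypes among the members, with a log2 fold change of -0.52 (SE 0.21, 95% interval -0.96 to -0.08, adjusted p = 0.226) in untreated DKO against Apoe-/- BMDM. It was -0.42 at oxLDL 10 (SE 0.21, adjusted p = 0.523) and -0.27 at oxLDL 60 (SE 0.21, adjusted p = 0.766). The libraries of the 2 genotypes overlapped at every treatment. With a term for the Xist-positive libraries in the model, the difference in untreated cells was called (SE 0.11, adjusted p = 0.0113), and without those libraries it was called as well (-0.68, SE 0.13, adjusted p = 0.0116). With the replicate number as a block it was not (adjusted p = 0.159). At oxLDL 10 and oxLDL 60 Tlr1 was not called under any of these settings.

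Tlr6 in untreated DKO was lower by a log2 fold change of -0.29 (SE 0.11, adjusted p = 0.225). Without Apoe-/- untreated replicate 1 the value was -0.47 (adjusted p = 0.0134), which is under the minimum fold. At oxLDL 10 and at oxLDL 60 every DKO library lay below every Apoe-/- library, as it did for 3.12% and 12.0% of all genes tested, and the values of -0.20 (adjusted p = 0.574) and -0.09 (adjusted p = 0.870) did not pass. For Cd14 and Tlr2 the differences in untreated cells were -0.01 (95% interval -0.32 to 0.31) and -0.02 (95% interval -0.22 to 0.18). The interval of the interaction was -0.65 to 0.25 for Cd14, -0.29 to 0.27 for Tlr2 and -0.37 to 0.88 for Tlr1, so a difference in response as large as the fall of the gene in Apoe-/- lay outside each interval.

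**Figure D5:**
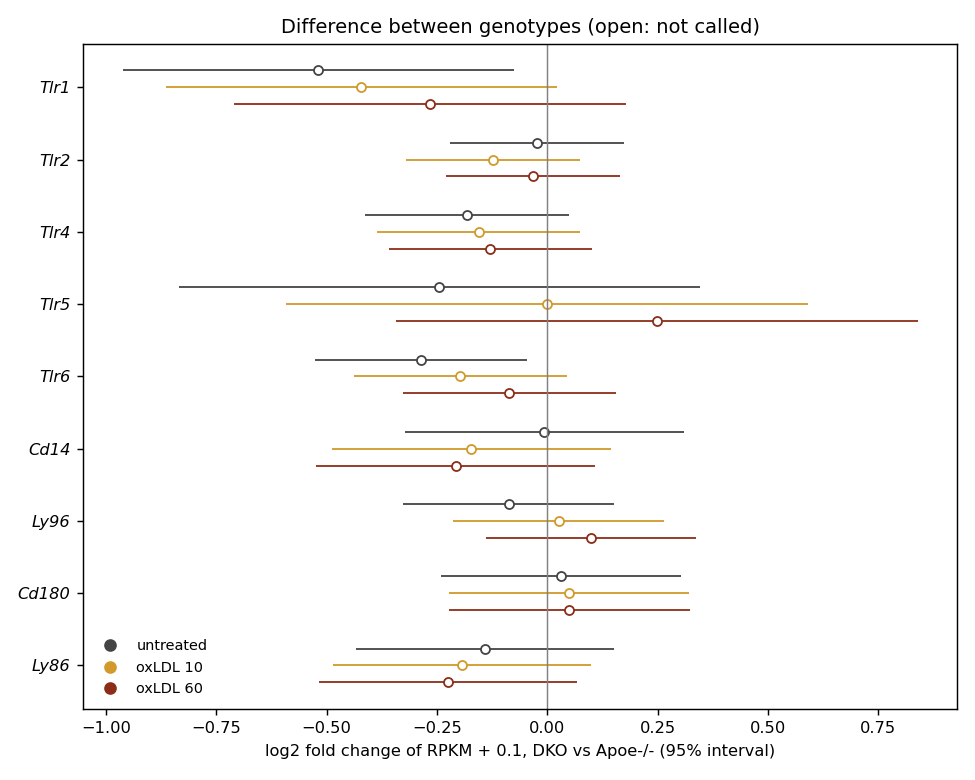
Log2 fold change of RPKM + 0.1 in DKO against Apoe-/- BMDM for the 9 genes, untreated in grey, with oxLDL 10 in yellow and with oxLDL 60 in red. Lines are 95% intervals from limma, and open points were not called. All 27 points are open, and the lowest is Tlr1 in untreated cells at -0.52.

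The levels of Cd14 and Tlr2 rose and fell together over the 18 libraries (Pearson r = 0.98 across libraries, which share their treatment groups), and Tlr1 was nearest to Cd14 among the members (r = 0.90). After the group means were taken out, r was 0.62 for Cd14 and Tlr2 and 0.83 for Cd14 and Tlr1. In the same deviations Tlr4 went with Ly86 (r = 0.91) and with Tlr1 (r = 0.89). For Tlr4 and Ly86 the Xist-positive library was the highest in 5 of 6 groups, and for Tlr1 and Cd14 in 6 of 6. Cd14 had r = 0.71 with Tlr4, and Ly96, with 4 of 6 groups, had r = 0.73. All of these are descriptions over 18 libraries that share groups and replicate numbers.

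Among all genes tested, the 2 whose pattern over the 18 libraries was closest to that of Cd14 were Orai2, a calcium channel (r = 0.992), and Sod2, the mitochondrial superoxide dismutase (r = 0.990). Closest to Tlr2 were Nfkbiz, a nuclear IκB protein, and Pde4b, a phosphodiesterase of cyclic AMP, both at r = 0.990. Closest to Tlr1 were Dram1, a lysosomal membrane protein (r = 0.983), and Ptpro, a receptor tyrosine phosphatase (r = 0.979). For Ly86 they were Serinc3 (r = 0.967) and Ticam2, the adaptor that links TLR4 to its second signalling branch (r = 0.936), and for Tlr4 they were Fcna, a soluble lectin (r = 0.952), and Emb (r = 0.929). The other members had no neighbor above 0.859: Tlr6 was nearest to Hacd4 (r = 0.859) and Osbpl11 (r = 0.837), and Cd180 to Dlg1 (r = 0.858) and 2610005L07Rik (r = 0.850). Ly96 was nearest to Apoc1 (r = 0.761) and Zfp607b (r = 0.736), both below 0.4 RPKM, and Tlr5 to C2cd5 (r = 0.705) and Rec114 (r = 0.686). No p is given for these values, since the neighbors were picked as the highest of all genes tested.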

How the data were processed

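RNA-seq of 18 BMDM libraries was analysed, 3 in each of 6 groups that were taken from the sample titles. Per the labels the authors aligned reads with STAR to mm10 and deposited RPKM values for 18668 gene symbols. Raw counts were not used here, and 24 symbols that had turned into dates were kept as they stood. The sources name differing sequencers and read lengths. RPKM are shares of a library, so a few abundant RNAs lower all others. Depth was recovered from the steps of low values: 82.3% of 40307 such values lay within 0.05 of whole reads, against 10.0% by chance. Tlr5 reads carry counting error only in this estimate, and PCR copies are not independent molecules.

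The authors used DESeq2, which needs counts, so limma 3.58.1 (R 4.3.3, statmod 1.5.0) was applied to log2(RPKM + 0.1) of the 12838 genes that reached 0.1 RPKM in 3 or more libraries. One model with 6 group means was fitted with an eBayes trend, and p was adjusted by Benjamini-Hochberg within each of 10 comparisons. Fold changes of low genes are understated on this scale. The fit was tested first on simulated data with independent libraries. That test does not cover a link between libraries of the same replicate number. Limits (adjusted p 0.05, fold 1.4) follow the study. All 9 members were named, with statistics for each at oxLDL 60 and elsewhere for those called or with the nearest values, and from a list up to 6 called genes. Members and lists were chosen with earlier results of these data known.

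Replicate numbers were checked by the correlation of deviations from group means. In 18 pairs with the same number and genotype r was 0.18 to 0.69. For other numbers it was -0.61 to 0.29, with a median of -0.35, which is negative in part because deviations within a group cancel. A number was therefore taken to link libraries within a genotype. The main model does not use this link, and the block among the alternatives does. No label names an animal, so an animal and a shared culture or preparation cannot be told apart. Same-numbered libraries of different genotypes had a median of -0.17. The p-values measure the spread between these libraries. Alternatives covered the pseudocount, filters, scaling, minimum fold, libraries fitted, Xist, the block and each replicate left out. Promoters came from RefSeq (GRCm38.p6), gene models from GENCODE M21, and motifs were searched as exact letters. Python 3.11.15, numpy 2.4.6, pandas 2.3.3 and matplotlib 3.10.9 were used.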

Additional observations from a re-analysis of the deposited data

How the results depend on the processing

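Of 166 recomputed counts of members called, 161 stayed within 1.5 times the count given, and of 1088 recomputed values of single genes 1015 kept their direction and their side of the threshold, 27 lost their call, 12 gained one and 34 changed sign. Leaving out 1 library at a time, the count at oxLDL 10 in Apoe-/- was 1 to 2, with Cd14 lost in 3 cases and Tlr2 called in each. Between untreated genotypes the count of 0 became 1 (Tlr1) with a term for the Xist-positive libraries and again 1 without them, where fewer libraries were fitted. With the replicate block, Tlr1 was called at oxLDL 10 in Apoe-/- (-0.51) and from oxLDL 10 to oxLDL 60 in DKO (-0.54), and no other call of a member changed. Without a filter on low values, Tlr1 lost its call from oxLDL 10 to oxLDL 60 in Apoe-/- (adjusted p = 0.0793), with more genes tested. Rescaling shifted the median log2 value of all genes by 0.119 in the interaction and by less than 0.1 elsewhere. The changes of sign were all in values that were not called, and their cause was not tested. At oxLDL 60 in Apoe-/-, leaving out 1 library moved Tlr4 between -0.0028 and 0.182, Tlr6 between -0.200 and 0.0973, Ly96 between -0.0885 and 0.122, Cd180 between -0.0957 and 0.178 and Ly86 between -0.232 and 0.0539. Rescaling gave -0.0572 for Ly96 and -0.0374 for Cd180, and omission of the Xist-positive libraries 0.0828 for Tlr6 and -0.132 for Ly96. At oxLDL 60 in DKO, Tlr5 moved between -0.0281 and 0.306 (-0.125 without the Xist-positive libraries) and Cd180 between -0.0522 and 0.0956. Between untreated genotypes Tlr2 moved between -0.123 and 0.0949 (0.0929 without the Xist-positive libraries) and Cd14 between -0.129 and 0.0971. At oxLDL 60 the genotype difference of Tlr2 moved between -0.110 and 0.0180 (0.0360 without the Xist-positive libraries), and its interaction between -0.127 and 0.0900 (0.115 after rescaling). Tlr5, with 4 to 27 reads in a library by the smaller estimate, had the widest intervals of the members.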
